A study of Mus musculus with 6 samples.

Results

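The nuclear-encoded subunits of the mitochondrial respiratory chain were taken by gene symbol: Nduf genes of the a, b, c, s and v series, Sdha to Sdhd, the Uqcr genes with Cyc1, the Cox4 to Cox8 genes, and the Atp5 genes. This gave 83 genes with 150 transcripts, of 13931 genes with 24647 transcripts in all: 37 for complex I, 4 for complex II, 9 for complex III, 16 for complex IV and 17 for complex V. The libraries came from lung cells of 6 C57BL/6 mice that were prepared as alveolar epithelial type 2 cells, the surfactant-making cells of the alveolus. In 3 mice, titled sham, the agent was PBS, given repeatedly, and in the other 3, titled mBLM, it was bleomycin, given repeatedly at 1 U/kg. Bleomycin is a DNA-cleaving drug that injures the rodent lung. Each value is an FPKM, a fragment number scaled by transcript length and by library size, so levels can be compared between genes. The labels do not state the age or sex of the mice, how often or by what route they were dosed, or when the lungs were taken.

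The respiratory chain sits in the inner mitochondrial membrane. Complexes I and II feed electrons from NADH and succinate into ubiquinone, complex III passes them to cytochrome c, and complex IV hands them to oxygen. Complexes I, III and IV pump protons, and complex V, the ATP synthase, uses the returning protons to make ATP. A few subunits are coded in the mitochondrial genome and the rest in the nucleus. Several nuclear subunits of complex IV exist as a widely expressed form and a form typical of lung, muscle or testis. Type 2 cells are rich in mitochondria, since making and packing surfactant costs energy.

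Most of these genes changed little under bleomycin, while many other genes changed. Of the 82 members that could be tested, 0 rose, against 15.2% of all 12326 tested genes, and 3 fell, against 7.34% of all genes (limma, Benjamini-Hochberg adjusted p under 0.05). Before adjustment, 8 members (9.76%) had a p under 0.05, against 36.8% of all genes. The 3 that fell, Cox6a2, Cox6a1 and Cox6b2, all code for subunits 6a or 6b of complex IV. The median log2 fold change, bleomycin minus PBS on log2(FPKM + 1), was -0.03 for the members and 0.09 for all genes. A change within 0.5 in either direction was found for 72 of 82 members (87.8%), against 55.4% of all genes. A test that passes for few genes does not by itself show equal levels, so the width of the intervals was also counted. The 95% interval of the change lay wholly inside 2-fold in either direction for 65 of 82 members (79.3%), against 45.1% of all genes. The members were also more abundant than most genes: their median level was 46.4 FPKM and their median standard error 0.197, against 8.05 FPKM and 0.231 for all tested genes. In bulk RNA, fewer cells of a type and less RNA per cell cannot be told apart, and this holds for each value reported.

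The levels of cell type markers in the preparations differed between the groups. Of 12 type 2 cell markers 11 fell, and their summed level was 18546 to 26791 FPKM in the PBS libraries and 4180 to 8744 in the bleomycin libraries. Of 7 pan-leukocyte markers 6 rose, with sums of 67.2 to 89.0 FPKM under PBS and 943 to 1403 under bleomycin. All 9 endothelial markers rose, from 35.03 to 39.2 FPKM in sum to 323 to 591, and 4 of 9 fibroblast and smooth muscle markers fell, from 1858 to 2578 FPKM to 472 to 1150. In the type 2, pan-leukocyte and fibroblast lists no marker was at 0 in any library, and the endothelial marker Cldn5 was listed at 0 in all 3 PBS libraries. Cldn5 and Emcn passed the expression filter through the bleomycin libraries alone, so their place among the 9 was set by the group where they are high. The part of this shift in the results on respiratory chain genes was not tested. The members made up 1.74% to 1.91% of all listed FPKM in every library.

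**Figure D1:**
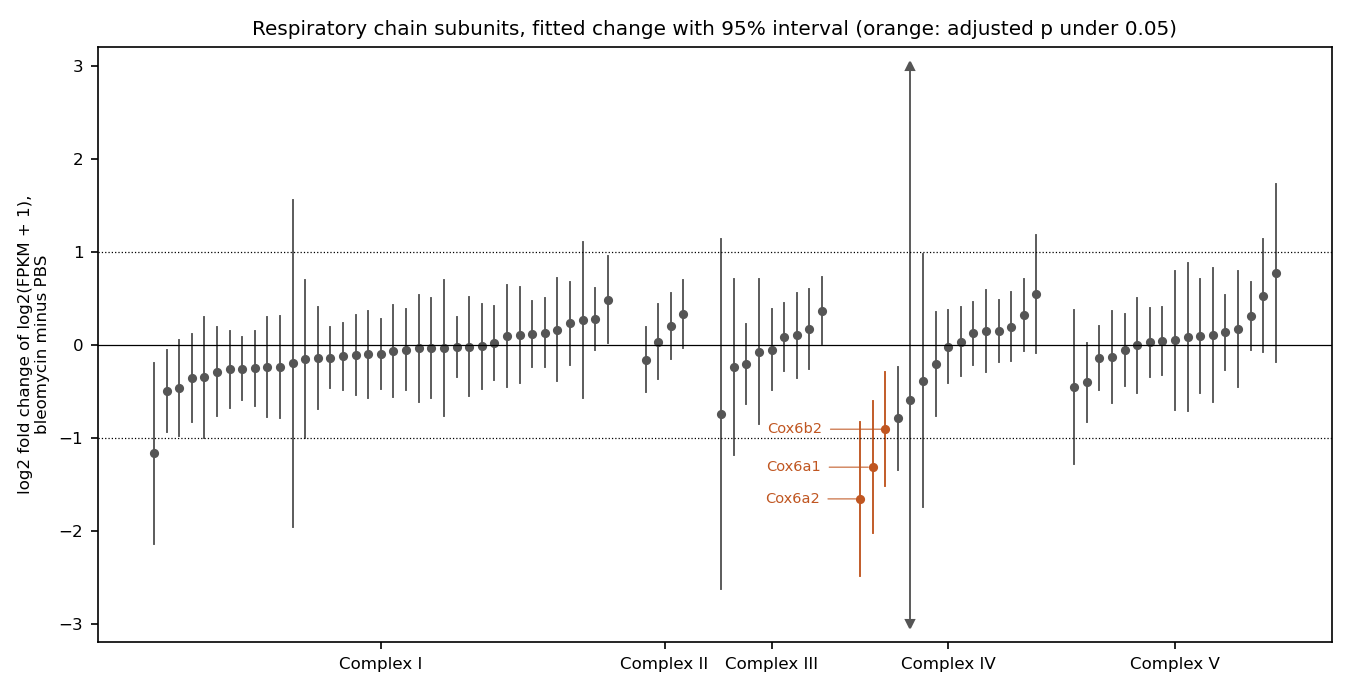
Log2 fold change of FPKM + 1, bleomycin minus PBS, for each of the 82 tested subunit genes, grouped by complex and ordered within it, with limma's 95% interval. Dotted lines mark 2-fold in either direction. Most points lie near 0, the 3 orange genes of complex IV passed the adjusted threshold, and the interval of Cox8a, marked by triangles, runs past both ends of the axis (-5.42 to 4.23).

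Summed over its genes, every complex gave overlapping values in the 2 groups. Complex I summed to 1838, 1574 and 1508 FPKM in PBS libraries 1 to 3 and to 1632, 1599 and 1335 in bleomycin libraries 1 to 3. Complex IV summed to 1472, 1272 and 1081 FPKM under PBS and 1237, 1085 and 1159 under bleomycin. Complex V summed to 1549, 1412 and 1395 FPKM under PBS and 1580, 1489 and 1405 under bleomycin. In each of these the difference of the means was smaller than the SD of the PBS group: complex I gave 1640.0 ± 175 and 1522 ± 163 FPKM, complex IV 1275 ± 196 and 1161 ± 76.2, and complex V 1452 ± 84.3 and 1491 ± 87.2 (SD, n = 3 each). Complex III stood at 503 ± 77.7 and 491 ± 78.1 FPKM. Complex II, with 4 genes, stood at 159 ± 19.3 FPKM under PBS and 174 ± 4.14 under bleomycin. PBS library 1 gave the highest sum of its group in all 5 complexes.

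**Figure D2:**
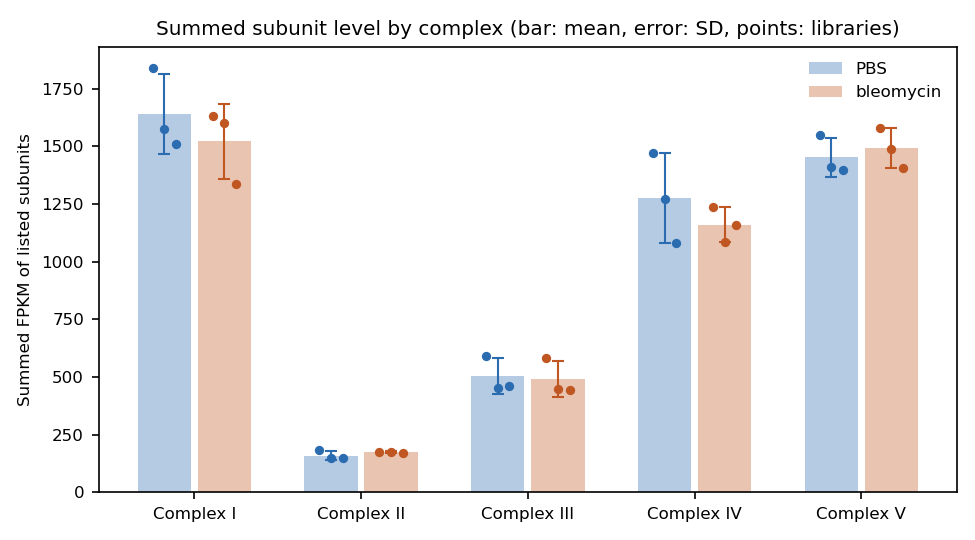
Summed FPKM of the listed subunit genes of each complex. Bars are means of 3 libraries, error bars SD and points single libraries. In all 5 complexes the bleomycin points overlap the PBS points, and the SD bars of the groups overlap.

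In complex I, the NADH dehydrogenase, all 37 genes passed the expression filter, 0 rose and 0 fell, with a median change of -0.10 and a range of -1.17 to 0.48. Before adjustment 3 had a limma p under 0.05, and for 32 of the 37 the interval lay inside 2-fold. The nuclear-encoded core subunits, which hold the flavin, the iron-sulfur clusters and the ubiquinone site, include Ndufs1, Ndufs3, Ndufs7, Ndufs8, Ndufv1 and Ndufv2. The changes of these named genes ran from -0.27 for Ndufv1 to 0.23 for Ndufs8, and that of Ndufs3 was -0.02. Ndufs3 read 34.0, 36.7 and 32.0 FPKM under PBS and 34.5, 32.5 and 33.7 under bleomycin. The most abundant complex I gene, Ndufa6, an accessory subunit, read 111, 103 and 89.9 FPKM under PBS and 86.9, 112 and 83.4 under bleomycin. Its groups overlapped fully.

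Of the genes counted in complex I by name, Ndufa4l2 and Ndufc2 had the most negative changes. The counts, range and sums of complex I hold Ndufa4l2 and its relative Ndufa4. Ndufc2, a membrane arm subunit, read 110.0, 93.8 and 101 FPKM in the PBS libraries and 88.4, 66.0 and 62.8 in the bleomycin libraries. Its groups did not overlap, but the change of -0.50 did not pass (SE 0.18, limma adjusted p = 0.0984). Ndufa4, first described in complex I and since assigned to complex IV, read 133, 90.9 and 66.0 FPKM under PBS and 69.2, 66.1 and 84.0 under bleomycin, a change of -0.35 (adjusted p = 0.401). Its low-oxygen-induced relative Ndufa4l2 had the lowest level and the most negative change of the genes so counted. Ndufa4l2 read 6.88, 2.46 and 4.31 FPKM under PBS and 0.534, 2.49 and 1.39 under bleomycin. Bleomycin library 2 lay above PBS library 2, so its groups overlapped, and the change of -1.17 (SE 0.41) did not pass (adjusted p = 0.0852). At the other end, Ndufs4, an accessory subunit needed for a stable NADH-binding arm, read 17.9, 13.9 and 19.99 FPKM under PBS and 26.6, 26.5 and 20.3 under bleomycin. Every bleomycin value exceeded every PBS value, the nearest pair by little, and the change of 0.48 (SE 0.20) did not pass (adjusted p = 0.126).

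Complex II, succinate dehydrogenase, is the one complex coded wholly in the nucleus and also a step of the tricarboxylic acid cycle. None of its 4 genes passed or had an unadjusted limma p under 0.05, and all 4 intervals lay inside 2-fold. Sdha, the flavoprotein that oxidises succinate, read 69.1, 52.6 and 52.3 FPKM under PBS and 56.1, 56.5 and 64.3 under bleomycin, a change of 0.03. Sdhb, the iron-sulfur subunit, read 42.8, 38.1 and 34.7 FPKM under PBS and 45.7, 46.6 and 40.9 under bleomycin, a change of 0.20 with overlapping groups. The fitted changes of the membrane anchors had opposite signs. Sdhc read 26.3, 22.7 and 22.3 FPKM under PBS and 22.1, 21.8 and 19.4 under bleomycin (change -0.16, adjusted p = 0.466). Sdhd read 43.6, 35.1 and 38.8 FPKM under PBS and 52.9, 50.6 and 44.5 under bleomycin (change 0.33, adjusted p = 0.176). The intervals ran from -0.51 to 0.19 for Sdhc and from -0.04 to 0.70 for Sdhd. Neither anchor's groups overlapped, which held for 43.6% of all tested genes, and neither change passed.

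In complex III, cytochrome bc1, 0 of 9 genes passed and 1 had an unadjusted limma p under 0.05, with a median change of -0.05. Uqcrfs1 and Cyc1 carry its redox centres that the nucleus codes for. Uqcrfs1, the Rieske iron-sulfur protein, read 39.9, 41.6 and 41.2 FPKM under PBS and 60.4, 53.4 and 46.2 under bleomycin. Its groups did not overlap and its change of 0.37 (SE 0.15) did not pass (adjusted p = 0.134). Cyc1, cytochrome c1, changed by -0.05 and the structural core proteins Uqcrc1 and Uqcrc2 by 0.08 and 0.17, with adjusted p from 0.544 to 0.866. Uqcrh, the hinge protein beside cytochrome c1, was the most abundant, at 149.7, 103 and 94.3 FPKM under PBS and 144, 126 and 68.6 under bleomycin, and its change of -0.07 came with an SE of 0.33. Uqcrb, a small subunit near the ubiquinone site, read 69.7, 70.1 and 80.3 FPKM under PBS and 78.3, 55.8 and 58.0 under bleomycin, a change of -0.21 (adjusted p = 0.453).

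Complex IV, cytochrome c oxidase, held all 3 genes that fell, and its remaining 12 tested genes did not pass. Subunit 6a is a small membrane subunit at the dimer contact, made in most tissues from Cox6a1 and in heart and skeletal muscle from Cox6a2. Cox6a1 (chr5:115345642-115348981, mm10) read 179, 142 and 139 FPKM under PBS and 76.1, 75.9 and 38.3 under bleomycin. Every bleomycin value was below every PBS value, and the mean level went from 153 ± 21.9 to 63.4 ± 21.8 FPKM (SD, n = 3 each), 0.414 of the PBS mean. The log2 change was -1.32 (SE 0.30, 95% interval -2.03 to -0.60, limma adjusted p = 0.0233). Cox6a2 (chr7:128205435-128206387) read 33.9, 18.4 and 31.9 FPKM under PBS and 8.82, 11.3 and 4.89 under bleomycin, again with no overlap. Its mean level was 0.297 of the PBS mean, and its log2 change was -1.66 (SE 0.35, interval -2.49 to -0.83, limma adjusted p = 0.018).

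Subunit 6b faces the intermembrane space and bridges the oxidase dimer, with Cox6b1 in most tissues and Cox6b2 known from testis. Cox6b2 (chr7:4751792-4753094) read 32.5, 24.5 and 36.1 FPKM under PBS and 11.4, 16.6 and 20.9 under bleomycin. The groups did not overlap, and the change was -0.91 (SE 0.26, interval -1.52 to -0.29, limma adjusted p = 0.0481). Cox6b1 read 133, 123 and 122 FPKM under PBS and 142, 133 and 137 under bleomycin, overlapping by a single PBS library. Its change was 0.12 (interval -0.21 to 0.46, adjusted p = 0.575), so the interval of the widely expressed 6b form lay inside 2-fold while that of the widely expressed 6a form lay below 0.

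These 3 calls are near the threshold. Cox6a1 was no longer called without PBS library 1, 2 or 3 (adjusted p 0.0752, 0.0591 and 0.0592), and Cox6a2 without PBS library 1 or 3 (0.0625 and 0.0632). Cox6b2 lost its call in every leave-one-out fit but that without bleomycin library 3 (0.057 to 0.135), and all 3 changes stayed negative in each of these fits. With libraries scaled to the same median or quantile normalized, 5 members fell: Cox4i2 joined in both, Ndufc2 in the first and Ndufa4l2 in the second. Part of the reads of Cox6a1 and Cox6a2 may also be shared with other loci, since how the authors assigned such reads is not stated in the labels. A processed transcript, AC148174.2, matches the Cox6a1 transcript at 92.7% identity over 86.9% of its length. Cox6a2 lies opposite Itgad, a leukocyte integrin gene, which has 70 exon bases there in GENCODE M21. Whether strand was used in the assignment is not given, so the values of Cox6a1 and Cox6a2 are uncertain to that extent.

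Other tissue-restricted forms were low in both groups. Cox4i2, the lung form of the regulatory subunit 4, read 3.49, 2.24 and 2.30 FPKM under PBS and 1.68, 0.898 and 0.825 under bleomycin. Its groups did not overlap, and its change of -0.79 (SE 0.23) stood just outside the threshold (limma adjusted p = 0.0537). Its common partner Cox4i1 read 154, 140.1 and 114 FPKM under PBS and 172, 142 and 137 under bleomycin, a change of 0.15 with overlapping groups. Cox7a1, the muscle form of subunit 7a, read 3.75, 2.65 and 2.79 FPKM under PBS and 3.16, 2.86 and 1.65 under bleomycin, and the common form Cox7a2 read 91.3, 76.1 and 74.7 under PBS and 85.9, 85.3 and 75.5 under bleomycin. Neither passed (changes -0.21 and 0.03). Cox8b, the muscle form of subunit 8, was the member left untested, at 2.69, 1.63 and 0.948 FPKM under PBS and 0.0629, 0.722 and 0.686 under bleomycin.

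The 4 tested tissue-restricted members of complex IV (Cox4i2, Cox6a2, Cox6b2 and Cox7a1) had a median change of -0.85, with 2 fallen. The 11 common complex IV genes had a median of 0.12, with 1 fallen, Cox6a1. Of all tested genes 7.34% fell, and the calls in both groups of genes were near the threshold. With Ndufa4l2, which was counted in complex I, the median of the then 5 restricted members was -0.91. These groups were set with earlier results of these data known, so their medians are descriptions. Cox6a2, Cox7a1 and Cox8b are best known from heart and skeletal muscle. Markers mostly of heart muscle were present at low level. Acta1, skeletal muscle actin, stayed at 0.029 to 0.42 FPKM over the 6 libraries and was not tested. Of 6 tested muscle markers 1 fell (Actc1, cardiac actin, change -0.99, limma adjusted p = 0.0299) and 0 rose, and the list summed to 20.4 to 40.3 FPKM under PBS and 23.7 to 30.5 under bleomycin. Nppa, the atrial hormone, was listed at 0 in PBS libraries 2 and 3. Their part in the result was not tested.

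**Figure D3:**
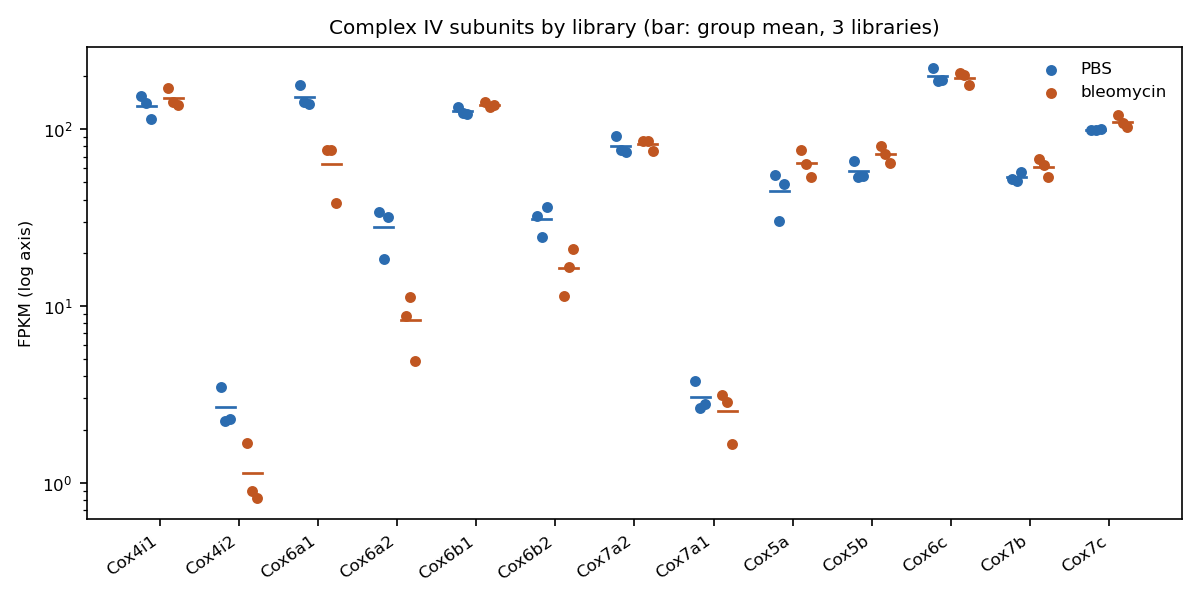
FPKM of 13 complex IV genes in each library on a log axis, with points for libraries and bars for group means of 3 libraries. Cox6a1, Cox6a2, Cox6b2 and Cox4i2 show bleomycin points wholly below PBS points, and the common forms Cox4i1, Cox6b1 and Cox7a2 overlap. Cox7a2l, Cox8a and Cox8b are not drawn.

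The mix of forms within a subunit was compared as the level of the restricted form in percent of the common form. Cox6b2 stood at 24.3%, 19.8% and 29.6% of Cox6b1 under PBS and at 8.04%, 12.4% and 15.3% under bleomycin. Cox4i2 stood at 2.27%, 1.60% and 2.02% of Cox4i1 under PBS and at 0.975%, 0.631% and 0.604% under bleomycin. In both pairs the groups did not overlap, with means of 24.6% ± 4.87 and 11.9% ± 3.66 for 6b and of 1.96% ± 0.336 and 0.737% ± 0.207 for 4 (SD, n = 3). The 2-sided exact permutation p was 0.1 for each, the smallest that 3 against 3 can give, and 0.24 after adjustment over the 6 pairs compared. Cox6a2 was 18.3% ± 5.0 of Cox6a1 under PBS and 13.1% ± 1.65 under bleomycin, with overlapping libraries (exact permutation p = 0.2), so both forms of 6a were lower and their ratio was not separated. The ratios of Cox7a1 to Cox7a2 and of Ndufa4l2 to Ndufa4 also overlapped (exact permutation p = 0.2 each). For Cox8b and Cox8a the exact permutation p was 0.6.

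None of the remaining complex IV genes passed. Cox6c, a small membrane subunit, was the highest of the complex, at 221, 186 and 190 FPKM under PBS and 209, 202 and 177 under bleomycin, a change of -0.02 (SE 0.16). Cox5a, on the matrix side, had the most positive change of the complex at 0.54 (SE 0.26, adjusted p = 0.187), from 55.1, 30.1 and 49.0 FPKM to 76.0, 63.4 and 53.7. Bleomycin library 3 lay below PBS library 1. Cox5b, Cox7b and Cox7c, further structural subunits, changed by 0.32, 0.19 and 0.15, and none passed.

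In complex V, the ATP synthase, 0 of 17 genes passed and 0 had an unadjusted limma p under 0.05, with a median change of 0.05. The 17 include Atp5s and Atp5sl, which match by name but are not subunits of the core enzyme. The counts and sums of complex V hold both. GENCODE M21 names the Atp5sl locus Dmac2. The catalytic head was steady: Atp5b, the beta subunit and the highest of all 83 members, read 206, 199.8 and 177 FPKM under PBS and 218, 235 and 188 under bleomycin (change 0.13). Atp5a1, the alpha subunit, read 132, 150.1 and 160.3 FPKM under PBS and 145, 154 and 154 under bleomycin (change 0.04). Atp5h, subunit d of the peripheral stalk that holds the head still, read 155, 151 and 149.6 FPKM under PBS and 129, 125 and 93.1 under bleomycin. Its groups did not overlap, and its change of -0.41 (SE 0.18) did not pass (adjusted p = 0.151). Atp5s, a coupling factor, and Atp5sl were the lowest of the group: Atp5s read 6.998, 2.89 and 2.47 FPKM under PBS and 2.01, 2.37 and 3.13 under bleomycin (change -0.46), and Atp5sl 4.23, 6.66 and 2.90 under PBS and 14.6, 6.55 and 5.58 under bleomycin (change 0.77). Both overlapped between groups and neither passed (adjusted p = 0.387 and 0.215).

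Across the 82 tested members, 16 (19.5%) had groups that did not overlap, 6 higher and 10 lower under bleomycin, against 43.6% of all tested genes. The 6 higher ones were Ndufb8, Ndufs4, Sdhd, Uqcrfs1, Cox7c and Atp5c1. The 10 lower ones were Ndufb2, Ndufb3, Ndufc1, Ndufc2, Sdhc, Cox4i2, Cox6a1, Cox6a2, Cox6b2 and Atp5h. Of these 16 only the 3 named above passed the adjusted threshold.

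Several subunits varied more between libraries of a group than between groups. Cox8a, the common form of the smallest oxidase subunit, read 209.7, 184 and 2.50 FPKM under PBS and 2.37, 70.7 and 162 under bleomycin, so 1 library of each group was near 2 FPKM and the rest at 70.7 or more. The highest PBS value was 84.0 times the lowest, and the highest bleomycin value 68.4 times the lowest. Uqcr10, a small complex III subunit, read 52.7, 47.4 and 39.3 FPKM under PBS and 79.6, 6.77 and 34.4 under bleomycin, with bleomycin library 2 low. The same library was low for Cox7a2l, a factor that joins complexes III and IV into supercomplexes, at 36.0 FPKM against 103 to 180 in the other libraries. Ndufb11, a membrane arm subunit, was low in PBS library 1 (23.98 FPKM) and bleomycin library 3 (15.7), against 72.9 to 82.9 elsewhere. Uqcr11, a small complex III subunit, read 122, 52.5 and 55.7 FPKM under PBS and 51.1, 46.7 and 89.1 under bleomycin, high in PBS library 1 and bleomycin library 3. Ndufs5 was low in PBS library 2 (25.2 FPKM) against 48.2 to 63.4. Atp5d, the delta subunit of complex V, was low in the same 2 libraries as Ndufb11 (44.6 and 51.9 FPKM, against 81.7 to 89.3 elsewhere), and so was Atpif1, the inhibitor of complex V (46.3 and 35.6 FPKM, against 82.9 to 108). The low libraries were thus shared by some of these genes and not by others, and Cox6c stayed between 177 and 221 FPKM in all 6. For Cox8a and Uqcr10 the intervals, -5.42 to 4.23 and -2.63 to 1.13, are too wide to place the change within 2-fold.

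**Figure D4:**
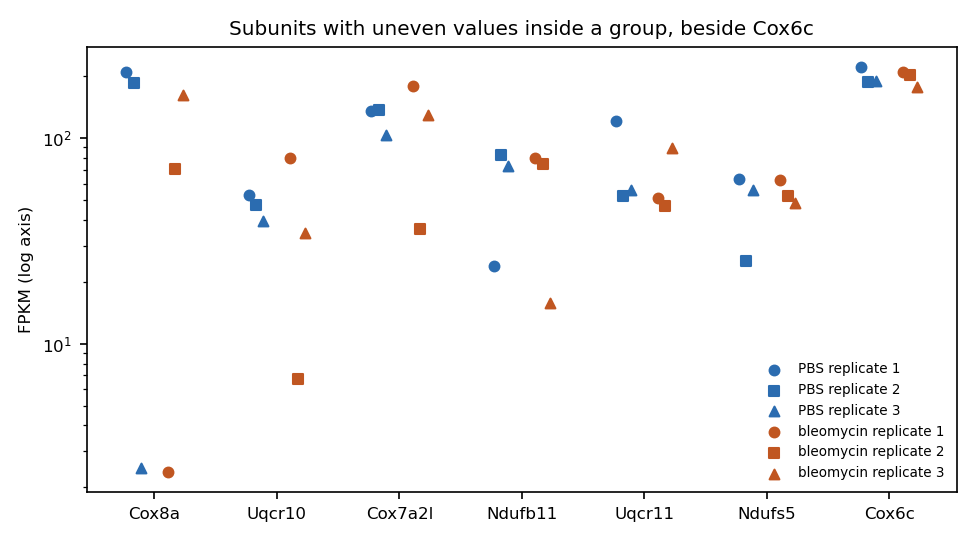
FPKM on a log axis of 6 subunit genes with values far apart inside a group, and of Cox6c for comparison. Marker shape gives the replicate number and colour the group. Cox8a is near 2 FPKM in PBS library 3 and bleomycin library 1. Uqcr10 and Cox7a2l are low in bleomycin library 2, Ndufb11 in PBS library 1 and bleomycin library 3, and Ndufs5 in PBS library 2.

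Gene sums can hide a change of transcript, so the same fit was also run on transcripts, a choice made after the values were seen. Of 150 member transcripts, from 39 genes with several and 44 with 1, 125 were tested. 1 rose, against 10.8% of all 17759 tested transcripts, and 6 fell, against 3.97%. The 6 that fell belong to Cox4i2, Cox6a1, Cox6a2 and Cox6b2. For Cox6a1 and Cox6a2 the single listed transcript repeats the gene value. Cox4i2-001, the main Cox4i2 transcript, passed here with a change of -1.06 (limma adjusted p = 0.0291), and its part of the Cox4i2 sum was 89.7% ± 2.97 under PBS and 56.4% ± 5.13 under bleomycin (SD, n = 3).

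Cox6b2 has 7 listed transcripts, which did not move together. Cox6b2-003, Cox6b2-006 and Cox6b2-008 fell by 1.56, 1.87 and 1.10 on the log2 scale (limma adjusted p = 0.0222, 0.043 and 0.0305). Cox6b2-001 read 3.94, 4.08 and 5.28 FPKM under PBS and 5.06, 6.56 and 9.06 under bleomycin and did not pass (change 0.52, adjusted p = 0.225). Its share of the gene sum was 12.1%, 16.7% and 14.6% under PBS and 44.2%, 39.6% and 43.3% under bleomycin. In GENCODE M21 (GRCm38, the assembly that mm10 holds), Cox6b2-001 and Cox6b2-003 code for 88 residues and Cox6b2-008 for 60. The gene sum fell through transcripts other than Cox6b2-001.

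Atp5g2 codes for the c subunit of the proton-driven rotor ring, like Atp5g1 and Atp5g3. Its sum did not pass (change 0.53, adjusted p = 0.187), but Atp5g2-201 read 10.3, 2.65 and 1.65 FPKM under PBS and 39.1, 28.1 and 27.9 under bleomycin. It was the member transcript that rose (change 2.76, SE 0.53, limma adjusted p = 0.0181). Atp5g2-001, the main form under PBS, read 22.4, 42.0 and 21.98 FPKM under PBS and 18.7, 17.3 and 12.8 under bleomycin (change -0.74, adjusted p = 0.152). The share of Atp5g2-201 in the gene sum was 30.2%, 5.73% and 6.61% under PBS and 65.3%, 59.1% and 65.2% under bleomycin. Atp5g2-201 and Atp5g2-001 both code for 146 residues in GENCODE M21 and differ in length, 441 and 731 bases. How the authors split reads between transcripts of a gene is not stated in the labels, so these values and shares are uncertain to that extent.

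Atp5c1 codes for the gamma subunit, the central shaft of the ATP synthase, and its last coding exons are known to be spliced differently in muscle and other tissues. Its 2 listed transcripts differ in a 37-base exon at chr2:10056770-10056806 (mm10), present in Atp5c1-001 with 10 exons and absent from Atp5c1-002 with 9. In GENCODE M21 they also begin and end at different bases, with lengths of 1166 and 1060 bases, so their FPKM need not rest on the exon alone. The coding ends are shown because the 2 forms differ there. Both are read from the minus strand of GRCm38, chr2:10056800-10059018 for Atp5c1-001 and chr2:10056158-10059018 for Atp5c1-002, 5′ to 3′, with introns removed. Capitals mark the bases after the last coding exon that both share, through the stop codon.
Atp5c1-001: atcatctctggggctgctgctctGGATTAA
Atp5c1-002: atcatctctggggctgctgctctGTAA
The form with the exon codes for 298 residues and the form without it for 297.

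Atp5c1-001 read 59.5, 69.7 and 55.0 FPKM under PBS and 114, 93.7 and 83.5 under bleomycin. Atp5c1-002 read 34.4, 20.0 and 32.9 FPKM under PBS and 14.3, 15.9 and 18.3 under bleomycin. The 2 moved in opposite directions without overlap, and neither passed (changes 0.65 and -0.78, limma adjusted p = 0.0699 and 0.0876). The share of the form with the exon was 63.3%, 77.7% and 62.6% under PBS and 88.8%, 85.5% and 82.0% under bleomycin, with means of 67.9% ± 8.51 and 85.4% ± 3.4 (SD, n = 3). The exact permutation p was 0.1 for this share and for those of Atp5g2-201, Cox6b2-001 and Cox4i2-001, the smallest that 3 against 3 can give. These 4 genes were picked for their shifts, so their shares are descriptions.

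**Figure D5:**
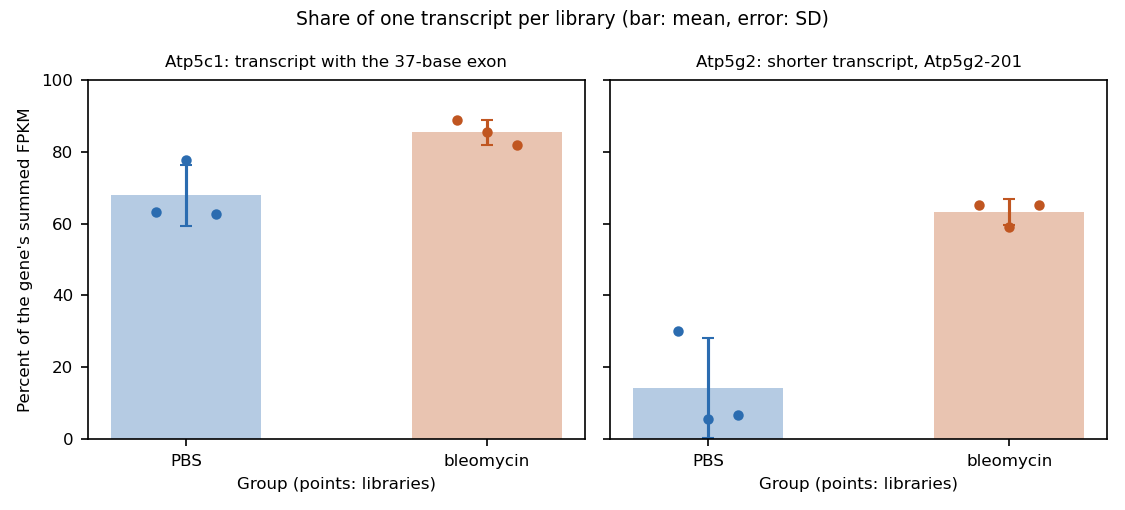
Share of the gene's summed FPKM in Atp5c1-001, the form with the 37-base exon, and in Atp5g2-201. Bars are means of 3 libraries, error bars SD and points libraries. For Atp5c1 the PBS points run from 62.6% to 77.7% and the bleomycin points from 82.0% to 88.8%, and for Atp5g2-201 the highest PBS point is 30.2% and the lowest bleomycin point 59.1%.

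Few of the genes around the chain passed, and some were too uneven to place. Cycs, cytochrome c itself, read 10.3, 14.1 and 15.7 FPKM under PBS and 20.1, 20.2 and 17.0 under bleomycin, a change of 0.50 that did not pass (adjusted p = 0.116). It was counted with the ubiquinone synthesis genes, of which 0 of 14 passed. None passed among genes listed as assembly factors: 15 tested for complex I, 4 for complex II, 5 for complex III, 20 for complex IV. Nor did any of 6 listed as assembly factors and regulators of complex V. These lists also hold subunits that the symbol rule did not match: Ndufab1 for complex I, and Usmg5 and 2010107E04Rik for complex V. Tmem70 is in the lists of both complexes. The interval lay inside 2-fold for 9 of the 20 complex IV assembly factors (45.0%), against 45.1% of all genes. Atpif1, the inhibitor of ATP hydrolysis by complex V, changed by 0.02, with an interval of -1.10 to 1.15 that reaches past 2-fold in both directions, and 0 of 18 tricarboxylic acid cycle genes passed. Merged with regulators of mitochondrial biogenesis, outer membrane and matrix genes and mt-Co1, the lists held 119 tested genes, of which 3 rose and 0 fell, against 15.2% and 7.34% of all genes. Their median change was 0.08, with a range of -5.87 to 1.14, and 14 (11.8%) had an unadjusted p under 0.05, against 36.8% of all genes.

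The 3 that rose were a coactivator and 2 outer membrane proteins. Ppargc1b, a coactivator of mitochondrial gene expression, was low, at 0.383, 0.450 and 0.396 FPKM under PBS and 1.15, 1.49 and 1.24 under bleomycin (change 0.70, limma adjusted p = 0.0196). Its better known relative Ppargc1a changed by 0.06 (interval -0.46 to 0.58), and Tfam, which packs and transcribes mitochondrial DNA, by 0.35 (adjusted p = 0.319). Vdac2, an outer membrane channel, read 47.6, 44.4 and 44.2 FPKM under PBS and 68.3, 63.0 and 66.7 under bleomycin (change 0.53, limma adjusted p = 0.0324). Tomm20, an import receptor, read 14.7, 15.1 and 15.7 FPKM under PBS and 23.8, 21.03 and 22.4 under bleomycin (change 0.53, limma adjusted p = 0.0346). In all 3 the groups did not overlap. Ppargc1b reached the minimum of 1 FPKM in the bleomycin libraries alone, so its place among the 3 was set by the group where it is high.

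Of the mitochondrially encoded subunits the files list mt-Co1, the catalytic subunit of complex IV. It read 6846, 14.5 and 14.3 FPKM under PBS and 0.980, 1.26 and 0.831 under bleomycin. The groups did not overlap, yet the PBS libraries themselves spanned 14.3 to 6846 FPKM, and the change of -5.87 had an interval of -11.35 to -0.39 (limma adjusted p = 0.115).

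The promoters of these genes were searched for 3 motifs of factors known to act on respiratory genes: GCATGCGC for NRF1, CCGGAAG for ETS family factors such as GABP, and AAGATGGC for YY1. RefSeq promoters on GRCm38.p6, from 250 bases before to 50 after the start, were at hand for 68 of the 83 members, and both strands were read. Members without an entry included Atp5a1, Cox4i1, Cox4i2, Cox6a2, Cox6c, Cyc1, Ndufa2, Ndufa4l2, Ndufb9, Ndufs1, Sdhc, Uqcrb, Uqcrc2 and Uqcrq. GCATGCGC was found in 10 of the 68 (14.7%) and in 3.05% of 27025 genes. CCGGAAG was found in 16 (23.5%) and in 9.93% of all. AAGATGGC was found in 11 (16.2%) and in 3.19% of all. At least 1 of the 3 was found in 31 members and none in 37. A match is a description of the letters in the window.

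Of the 3 genes that fell, Cox6a1 and Cox6b2 had a promoter entry, and both are shown because they differ in these letters. The 250 bases before the start are given 5′ to 3′ on the gene's strand, with motif matches in capitals. Cox6a1 is chr5:115348959-115349208 (minus strand) and holds overlapping NRF1 matches, 1 on each strand, and an ETS match. Cox6b2 is chr7:4753095-4753344 (minus strand) and holds none of the 3.
Cox6a1: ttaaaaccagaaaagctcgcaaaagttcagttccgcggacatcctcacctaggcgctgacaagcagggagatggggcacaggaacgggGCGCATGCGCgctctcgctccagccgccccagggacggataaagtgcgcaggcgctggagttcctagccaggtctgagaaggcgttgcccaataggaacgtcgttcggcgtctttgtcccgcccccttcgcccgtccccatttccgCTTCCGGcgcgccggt
Cox6b2: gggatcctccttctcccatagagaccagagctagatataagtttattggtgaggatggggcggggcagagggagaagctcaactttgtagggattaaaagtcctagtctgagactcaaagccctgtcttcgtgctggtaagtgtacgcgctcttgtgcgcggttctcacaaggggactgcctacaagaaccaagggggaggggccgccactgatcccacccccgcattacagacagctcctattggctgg
The common form Cox6b1, which did not pass, also had an ETS match. Any link between these letters and the levels was not tested.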

How the data were processed

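RNA was sequenced from type 2 cell preparations of 3 PBS and 3 bleomycin mice. Per the labels' protocols, total RNA was isolated with TRIzol and made into libraries with the KAPA stranded kit. HISAT2, StringTie, FastQC 0.10.1 and the build mm10 are named per the submitters' processing notes, without their settings. The authors deposited 1 file per library with an FPKM value for each of the same 24647 transcripts, per the file headers. Read numbers are not part of these files, so depth and counting error are unknown; the listed FPKM sum to 253146 to 300697 per library.

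FPKM were summed by gene ID. A gene was tested when at least 3 libraries reached 1 FPKM, which left 12326 genes. The test was run on log2(FPKM + 1) with limma 3.58.1 in R 4.3.3 (trended eBayes, a single group term), adjusted over all of them by Benjamini-Hochberg, with a threshold of 0.05. Fold changes on this scale understate the change of low genes. The 3 libraries that reach the minimum may all be of 1 group. The fit was also run on simulated data with known changes, and how many of these it recovered is not reported here. Ratios and shares were tested with exact permutation tests. Transcripts and near copies were looked up in GENCODE M21 (blastn 2.17.0), promoters in RefSeq.

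The members and lists were chosen with earlier results of these data known. Values in every library are given for members with an adjusted p under 0.05, the 3 most abundant members and the largest change in each direction of each complex, and both members of each isoform pair. Up to 4 genes of each other list that passed were also named, with Cycs, Atpif1, Ppargc1a, Tfam and mt-Co1 in any case. Other genes named were chosen after their values were seen. Alternatives were a pseudocount of 0.1 or 5, no filter or one of 5 FPKM, library scaling, the highest transcript in place of the sum, the variance trend, the replicate number as a block, a shorter promoter window and each library left out. The transcript fit and transcript shares were added after the data were seen. Limma p-values set a group difference against the spread between libraries within groups, with variances moderated over all genes. Permutation p-values rank it among the regroupings of the 6 libraries. Values of some members are not reported here.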

Additional observations from a re-analysis of the deposited data

How the results depend on the processing

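The absence of members that rose held under every alternative run. The number that fell was 3 and became 5 with libraries scaled to the same median or with quantile normalization, 4 with the highest transcript of each gene, 1 with the replicate block (Cox6a1 alone), and 0 to 3 when 1 library was left out. It was 0 without PBS library 1 or 3 and 1 without PBS library 2. Median scaling moved the median of all genes from 0.09 to -0.07 and that of the members from -0.03 to -0.22, and changed the split of all calls from 1871 higher and 905 lower to 1475 and 1412 (quantile normalization: 1431 and 1441). Cox4i2 passed under both scalings (adjusted p = 0.0304 and 0.0215), with the highest transcript (0.0198) and without bleomycin library 1 (0.0432). Ndufc2 passed with median scaling (0.0371) and Ndufa4l2 with quantile normalization (0.0355), while Cox6b2 missed with a pseudocount of 0.1 (0.0517), no filter (0.0511) and no variance trend (0.052).

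Small changes turned in sign. With median scaling Atp5a1 read -0.15, Atp5b -0.0595, Cox4i1 -0.0457, Cox6b1 -0.0709, Cox7a2 -0.16 and Sdha -0.16. Uqcrh read 0.0129 with quantile normalization and Atp5a1 -0.11 with the highest transcript. With 1 library left out, changes ranged for Atp5a1 from -0.0371 to 0.10, Cox6c from -0.0699 to 0.054, Cox7a2 from -0.0211 to 0.12, Cox8a from -2.54 to 1.07, Sdha from -0.0349 to 0.16, Uqcr10 from -1.51 to 0.18, Uqcr11 from -0.53 to 0.14 and Uqcrh from -0.28 to 0.25. The cause was not tested. No pairing by replicate number was seen: deviations of same-numbered libraries correlated at -0.004, 0.017 and 0.039. Those of differently numbered libraries correlated at -0.035 to 0.021. A shared batch or day was not tested. Shared limits are 3 mice a group, unknown depth and the shift of cell markers between groups.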
